A study of Homo sapiens with 16 samples.

Results

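The subject is the nuclear-encoded subunits of the 5 complexes of the mitochondrial respiratory chain and ATP synthase, in human melanoma cells in which MITF and TFE3 had been edited. They were picked by gene symbol alone. All numbered NDUFA, NDUFB, NDUFC, NDUFS and NDUFV genes and NDUFAB1 were taken, with SDHA to SDHD, the UQCR genes and CYC1, the COX4 to COX8 subunits, and the ATP5F1, ATP5M and ATP5P genes. Pseudogenes and antisense genes were left out, which removed UQCRBP1. This gave 88 of the 28278 gene symbols in the files, with 37 in complex I, 4 in complex II, 10 in complex III, 18 in complex IV and 19 in complex V. NDUFA4 was counted with complex IV, where its protein is now known to sit.

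Bulk RNA-seq counts came from 16 libraries of the established melanoma lines SKMEL28, grown in RPMI, and A375, grown in DMEM, both with serum and antibiotics and with fresh medium before harvest. In SKMEL28 the groups were MITFKO/TFE3KO clone 13 (3 libraries), MITFKO/TFE3KO clone 3 (3), their parental MITFKO line, named D2 (3), and wild type (1 library, numbered replicate 4). In A375 they were TFE3KO (3) and wild type (3), neither of them labelled as edited in MITF. TFE3 was disrupted with CRISPR-Cas9, and the replicates were separate flasks of a single clone or line. The p-values therefore reflect variation among flasks, not among independent editing events. In bulk RNA, fewer cells expressing a gene and less RNA per cell cannot be told apart.

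Complex I (NADH dehydrogenase) and complex II (succinate dehydrogenase) pass electrons to ubiquinone, complex III passes them on to cytochrome c, and complex IV (cytochrome c oxidase) passes them to oxygen. The protons pumped by complexes I, III and IV drive ATP synthesis by complex V. MITF and TFE3 are related basic helix-loop-helix factors that bind E-box sequences. In melanoma, MITF is known to raise PPARGC1A, a coactivator of mitochondrial genes, and the nuclear factors NRF1, ERR-alpha, GABP (an ETS protein) and YY1 are textbook regulators of respiratory subunits.

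Library totals ran from 17320855 to 31269126 counts, of which the 88 genes took 0.808% to 1.1% in SKMEL28 and 0.856% to 0.93% in A375. TFE3 mRNA stood at 42.5, 46.8 and 47.9 CPM (counts scaled to library size) in clone 13, at 8.13, 8.54 and 11.4 CPM in clone 3, at 70.3, 72.3 and 77.5 CPM in MITFKO and at 43.7 CPM in wild-type SKMEL28. Clone 13 thus kept 4.89 times the TFE3 mRNA of clone 3, and loss of TFE3 in it is known from the label only. A375 TFE3KO had 12.2, 12.8 and 11.4 CPM, against 125, 119 and 131 CPM in wild type. MITF mRNA itself showed no called difference in the libraries labelled MITFKO, at 527, 499 and 468 CPM against 524 CPM in wild type (edgeR adjusted p = 0.516), and clone 13 and clone 3 had more of it than MITFKO, with means of 870, 781 and 498 CPM. Loss of MITF in that group is therefore known here from the label, not from the counts. Of 8 melanoma markers, 6 fell and 1 rose in MITFKO against wild type, and their summed level was 5546 to 8468 CPM in the edited SKMEL28 libraries, 14043 CPM in wild type and 552 to 910 CPM in A375. Leukocyte and endothelial markers summed to at most 3.8 CPM in any library, keratinocyte markers, mostly KRT10, to 20.4 to 83.7 CPM, and fibroblast markers to 44.4 to 108 CPM in SKMEL28 and 4.8 to 8.53 CPM in A375. Replicate 2 of both double-knockout clones stood apart from its group: chi-square per degree of freedom against the other replicates was 21.9 and 23.3 in clone 13 and 6.44 and 7.14 in clone 3, against 4 and 3.39 between the other replicates. Counts of called genes are therefore also given without it.

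Subunit mRNA was mostly lower in MITFKO than in wild-type SKMEL28. Of the 78 subunits that passed the filter on low counts, 45 fell and 4 rose at an adjusted p under 0.05 by the quasi-likelihood F-test of edgeR, adjusted by Benjamini-Hochberg over 14605 genes. Among all genes tested, 23.4% fell and 25.2% rose. The median log2 fold change of the subunits was -0.31, against 0.01 for all genes. Complexes III and V lay lowest, with medians of -0.52 and -0.47, complex IV had -0.23, complex II -0.20 and complex I -0.17. By count, 7 of 10 tested subunits of complex III fell, 12 of 17 of complex V, 8 of 12 of complex IV, 2 of 4 of complex II and 16 of 35 of complex I. No difference between complexes was tested. With a single wild-type culture, the variance had to come from the replicated groups.

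**Figure D1:**
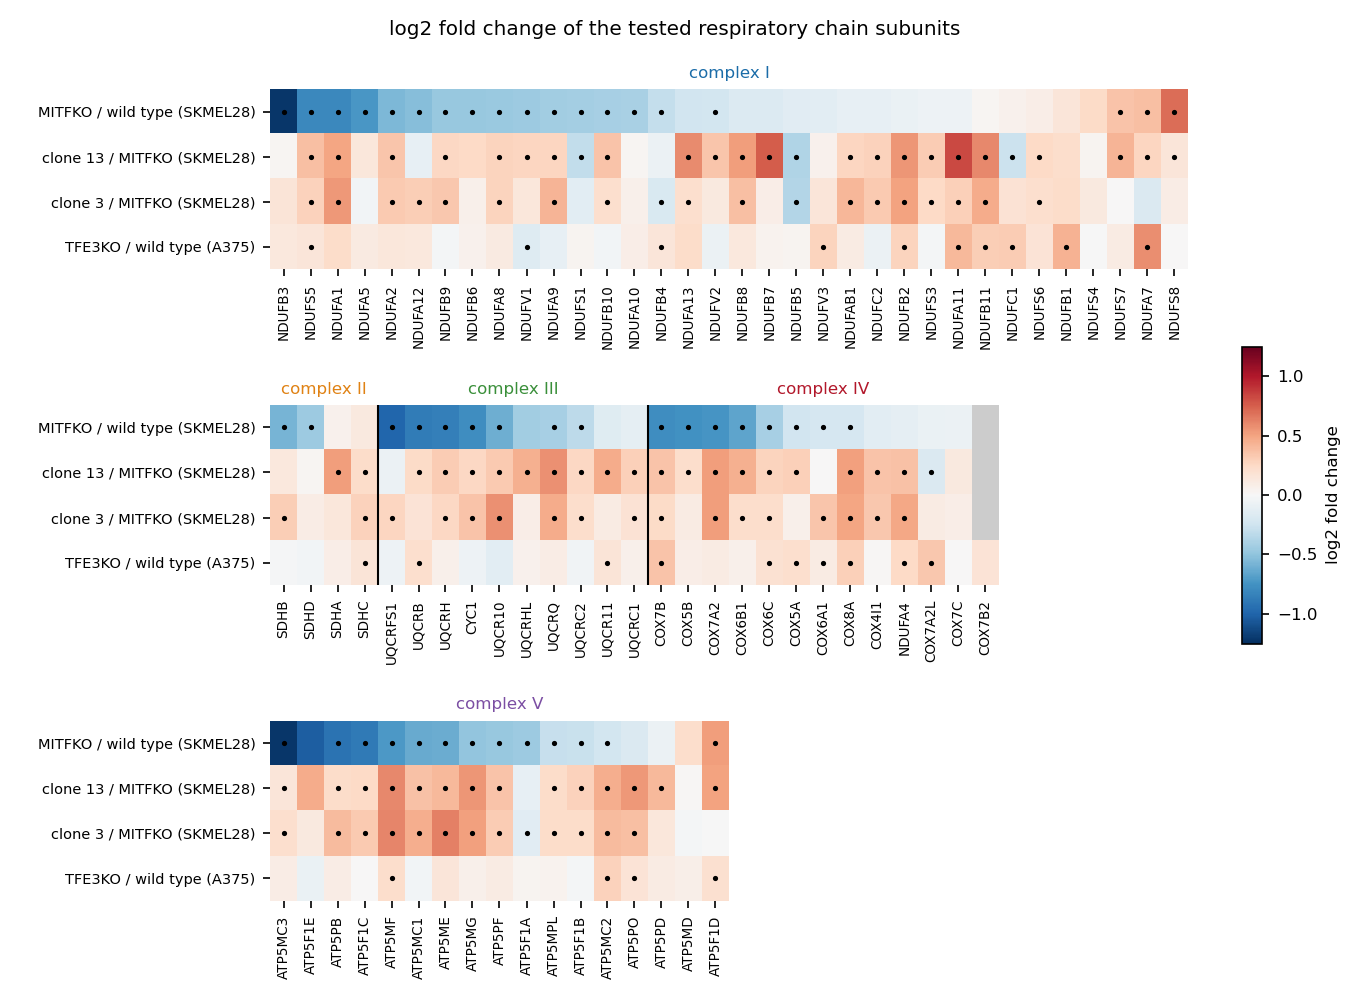
Colour gives the log2 fold change of tested subunits (columns, by complex) in 4 comparisons (down the page), from blue (lower) to red (higher); black dots mark an adjusted p under 0.05 and grey a subunit not tested. The MITFKO row is mostly blue, with 45 falls and 4 rises, and the rows of clones 13 and 3 are mostly red, with 57 and 46 rises.

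In complex V, the strongest fall was that of ATP5MC3, 1 of the 3 genes for the proton-carrying c subunit. It had 183, 190 and 182 CPM in MITFKO and 430 CPM in wild type, 2.32-fold lower (log2 -1.22, SE 0.07, adjusted p = 4.68e-12). The other c-subunit genes fell less, ATP5MC1 by 0.63 and ATP5MC2 by 0.23 on the log2 scale. ATP5PB, subunit b of the peripheral stalk, had 184, 175 and 176 CPM in MITFKO and 338 CPM in wild type. ATP5F1C, the gamma subunit of the rotating shaft, had 126, 131 and 125 CPM against 235 CPM. For all of these genes the wild-type library lay above every MITFKO library. The catalytic ATP5F1B and its partner ATP5F1A, the most highly counted subunits, fell by 0.28 and 0.46 on the log2 scale.

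In complex III, UQCRFS1, the Rieske iron-sulphur protein, had 93.2, 101 and 92.2 CPM in MITFKO and 190 CPM in wild type, 1.99-fold lower (log2 -0.99, SE 0.10, adjusted p = 1.97e-08). UQCRB, UQCRH and CYC1 (cytochrome c1) fell by 0.88, 0.85 and 0.77 on the log2 scale. The core subunit UQCRC1 did not pass the test, at a mean of 249 CPM in MITFKO and 268 CPM in wild type. UQCRH shares a near-identical copy, UQCRHL, so the split of reads between these genes is uncertain.

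In complex IV, COX7B, COX5B, COX7A2 and COX6B1 fell by 0.77, 0.75, 0.74 and 0.66 on the log2 scale, all of them small subunits around the catalytic core. COX7B, for example, had 34.6, 35.9 and 36.3 CPM in MITFKO and 60.9 CPM in wild type. COX4I1, the ubiquitous form of subunit 4, had a mean of 184 CPM in MITFKO and 201 CPM in wild type and did not pass (adjusted p = 0.303). The calls for COX5A and COX8A, log2 -0.24 and -0.21, were lost when single MITFKO libraries were left out, with adjusted p up to 0.0775 and 0.0987.

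In complex II, the iron-sulphur subunit SDHB had 190, 198 and 198 CPM in MITFKO and 292 CPM in wild type, 1.5-fold lower (adjusted p = 5.29e-07), and the membrane anchor SDHD was 1.37-fold lower. The flavoprotein SDHA and the other anchor SDHC did not pass, with log2 fold changes of 0.05 and 0.12. The complex was thus split, with SDHB and SDHD lower and neither SDHA nor SDHC called. With an offset for the GC content of transcripts, SDHC moved to 0.24 and was called higher, while SDHA stayed at 0.01.

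In complex I, the accessory subunit NDUFB3 had 28.4, 31.3 and 34.4 CPM in MITFKO and 73 CPM in wild type, 2.32-fold lower (log2 -1.22, SE 0.13, adjusted p = 6.66e-08). NDUFS5, NDUFA1 and NDUFA5, also accessory, fell by 0.81, 0.80 and 0.72. Among the core subunits, NDUFV1, NDUFS1 and NDUFV2, which hold flavin or iron-sulphur clusters in the NADH-oxidising tip, fell by 0.46, 0.42 and 0.23. NDUFS3 of the quinone-binding arm did not pass (log2 -0.07, adjusted p = 0.662), whereas NDUFS7 and NDUFS8 of that arm rose.

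**Figure D2:**
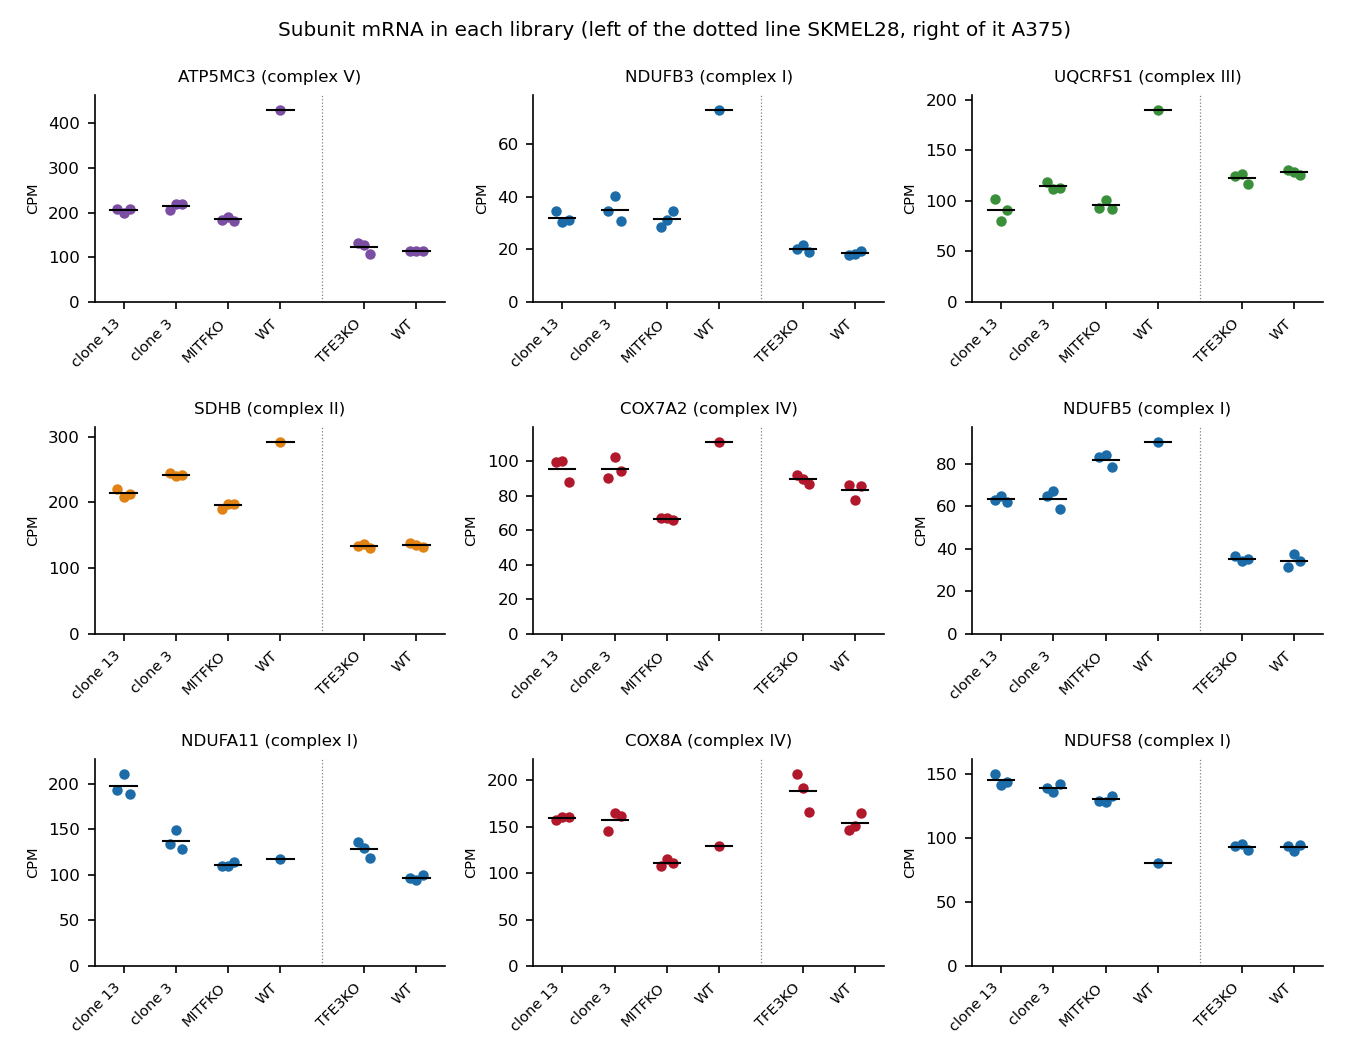
Points are CPM in each library for 9 subunits and bars are group means, with SKMEL28 left of the dotted line and A375 right of it; each vertical axis starts at 0. ATP5MC3, NDUFB3 and UQCRFS1 stand far above the other SKMEL28 groups in the wild-type library, NDUFS8 far below them, and NDUFB5 is low in both clones.

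The 4 rises in MITFKO were NDUFS8, ATP5F1D (the delta subunit of ATP synthase), NDUFA7 and NDUFS7. NDUFS8 had 129, 128 and 133 CPM in MITFKO and 80.1 CPM in wild type, 1.62-fold higher (adjusted p = 2.6e-07). ATP5F1D had 94.3, 97.8 and 106 CPM against 69.4 CPM, a log2 fold change of 0.52. After an offset for the GC content of transcripts, ATP5F1D turned to -0.08 (adjusted p = 0.448) and NDUFS8 fell back to 0.30 (adjusted p = 0.00499). These transcripts are rich in GC, 63.9% for NDUFS8 and 68.5% for ATP5F1D, against 43% for ATP5MC3. Across the 78 subunits the log2 fold change and GC content had a Spearman correlation of 0.312, and across 14057 genes, 0.229. All 4 genes also lay among neighbours that were higher in MITFKO: the medians of the 20 tested genes on either side ran from 0.42 to 0.80 on the log2 scale. For the 45 subunits that fell, the middle value of the same neighbour medians was 0.00, although the neighbours of COX7A2, UQCRFS1 and NDUFB3 had medians of -0.66, -0.56 and -0.44, and over all 78 subunits, 65 lay below their neighbours. The part of GC content or of chromosomal position in these calls was not tested further.

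Both clones labelled as double knockouts had more mRNA of most subunits than the MITFKO line they came from. In clone 13, 57 of 78 subunits rose and 4 fell, against 20.5% and 20.2% of all genes. In clone 3, 46 rose and 3 fell, against 18.2% and 17.6% of all genes. Median log2 fold changes were 0.29 in clone 13 and 0.22 in clone 3, and -0.02 and -0.01 for all genes. Log2 fold change and GC content had a Spearman correlation of 0.479 across the subunits in clone 13, against 0.173 across 14057 genes. In clone 3 the correlations were 0.135 and 0.0143. The part of GC content in these rises was not tested further. The clones share the MITFKO libraries, so their values are set side by side and not taken as independent. Clone 13 had more rises than clone 3, both among the subunits and among all genes (20.5% against 18.2%). Clone 13 also kept more TFE3 mRNA than clone 3, and a link between TFE3 mRNA and the number of rises was not tested. Without replicate 2 of both clones, 56 rose and 5 fell in clone 13, and 44 rose and 4 fell in clone 3.

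By complex, the medians lay between 0.18 and 0.37. Complex V had medians of 0.37 in clone 13 and 0.32 in clone 3, complex III 0.31 and 0.24, complex IV 0.33 and 0.23, complex I 0.27 and 0.21, and complex II 0.18 and 0.22. Complex V rose in 14 of 17 tested subunits in clone 13 and 12 of 17 in clone 3. Complex III rose in 9 of 10 and 7 of 10, complex IV in 9 of 12 and 8 of 12, complex I in 23 of 35 and 17 of 35, and complex II in 2 of 4 in each. Averaged over all tested subunits, the log2 difference from the MITFKO mean was 0.25, 0.32 and 0.25 in the clone 13 libraries and 0.21, 0.27 and 0.19 in the clone 3 libraries, against -0.02, -0.00 and 0.02 in the MITFKO libraries themselves and 0.34 in wild type. Every clone library lay above every MITFKO library, and replicate 2 was the highest in each clone.

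**Figure D3:**
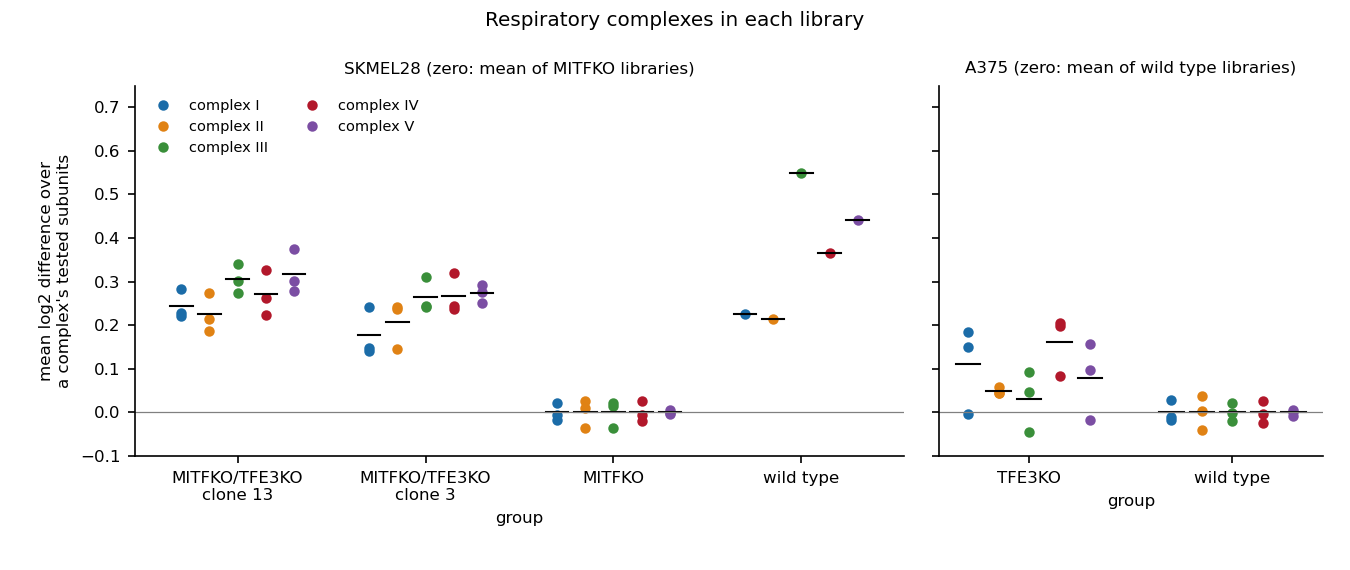
Each point is 1 library and each colour 1 complex; the vertical axis is the mean log2 difference over the tested subunits of that complex from the MITFKO mean (SKMEL28, left) or the wild-type mean (A375, right), and bars are group means. In SKMEL28 wild type, complex III is highest at 0.55 and complex II lowest at 0.21, and in A375 the third TFE3KO library lies near wild type for complexes I, III and V.

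The rises were small, 1.77-fold at most. NDUFA11, a membrane-arm subunit of complex I, had 193, 211 and 189 CPM in clone 13, 134, 149 and 129 CPM in clone 3 and 110, 110 and 114 CPM in MITFKO. It rose in both clones, by log2 0.83 (SE 0.06, adjusted p = 1.09e-09) and 0.30 (adjusted p = 0.000812). COX7A2, the liver-type form of subunit 7A, had 99.2, 99.8 and 87.6 CPM in clone 13, 90.2, 102 and 93.9 CPM in clone 3 and 66.8, 66.9 and 66.1 CPM in MITFKO, a log2 rise of 0.52 in each. COX8A had 157, 160 and 160 CPM in clone 13, 145, 165 and 162 CPM in clone 3 and 108, 115 and 111 CPM in MITFKO. For these genes no clone library overlapped a MITFKO library.

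ATP5ME, ATP5MF and ATP5MG, which encode the e, f and g subunits of the membrane part of ATP synthase, rose together. Their log2 fold changes were 0.40, 0.60 and 0.55 in clone 13 and 0.63, 0.61 and 0.51 in clone 3. ATP5ME had 16.3, 19.1 and 18.7 CPM in clone 13, 18, 23.4 and 22 CPM in clone 3 and 13.1, 15.1 and 12.8 CPM in MITFKO. In complex III, UQCRQ rose by 0.57 and 0.46, and UQCR10 by 0.33 and 0.57. NDUFA4 rose by 0.36 and 0.49, with clone 13 first in each pair. In complex II, SDHC rose in both clones, by 0.23 and 0.29. SDHA rose in clone 13 (log2 0.52, adjusted p = 9.09e-05), with 0.15 in clone 3 (adjusted p = 0.201). SDHB rose in clone 3 (log2 0.31, adjusted p = 8.07e-05), with 0.13 in clone 13 (adjusted p = 0.0515).

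The few subunits that fell against MITFKO all lay in stretches of the genome where neighbouring genes were lower too. NDUFB5 had 62.8, 64.9 and 62 CPM in clone 13, 64.8, 67 and 58.6 CPM in clone 3 and 82.9, 84.2 and 78.4 CPM in MITFKO, with no overlap, a log2 fold change of -0.37 in each. The median of its 40 neighbours on chromosome 3 was -0.42 in clone 13, where 70% of them fell, and -0.41 in clone 3, where 65% fell. NDUFS1, NDUFC1 and COX7A2L fell in clone 13 by 0.31, 0.27 and 0.18 on the log2 scale, and their neighbours had medians of -0.39, -0.53 and -0.20. The NDUFC1 libraries of clone 13 and MITFKO overlapped. NDUFB4 and ATP5F1A fell in clone 3 by 0.19 and 0.14, with neighbour medians of -0.33 and -0.22. The calls for COX7A2L and ATP5F1A ended when single libraries were left out (adjusted p up to 0.185 and 0.12), and COX7A2L also with the GC offset (0.222) and DESeq2 (0.0558). For the rises, the neighbour medians had a middle value of 0.02 for the 57 in clone 13 and -0.01 for the 46 in clone 3. They ran from -0.18 to 0.32 in clone 13 and from -0.21 to 0.14 in clone 3. NDUFA11, the largest rise in clone 13, had neighbours at 0.31, of which 52.5% rose. NDUFA7 rose by 0.27 in clone 13, with neighbours at 0.32. Of the 57 rises in clone 13, 56 lay above their neighbours. Over all 78 subunits, 71 lay above their neighbours in clone 13 and 74 in clone 3.

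The clones differed from each other in 22 subunits. Against clone 3, clone 13 had 13 subunits higher and 9 lower, or 16.7% and 11.5% of the 78 tested, near the 14.3% and 13.4% of all genes. Several of these subunits lay among neighbours that differed the same way. Chromosome 19 was higher in clone 13 as a whole, with a median log2 fold change of 0.21 over 984 genes. Of its 9 tested subunits, 8 were higher and 1, UQCRFS1, was lower. Among the 8, the call for COX6B1 ended when single libraries were left out (edgeR adjusted p up to 0.102). NDUFB7, a complex I subunit, had 86.2, 92.8 and 103 CPM in clone 13 and 55.2, 65 and 56.7 CPM in clone 3, a log2 fold change of 0.67 (SE 0.10, adjusted p = 9.23e-05), with a neighbour median of 0.32. NDUFA11, ATP5F1D, NDUFA7, NDUFS7 and UQCR11 had 0.53, 0.50, 0.45, 0.42 and 0.36, and their neighbours had 0.45, 0.46, 0.61, 0.42 and 0.41.

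Elsewhere, NDUFC1 on chromosome 4 had 25.7, 32.6 and 24.8 CPM in clone 13 and 34.1, 40.1 and 39.4 CPM in clone 3, a log2 fold change of -0.45 with neighbours at -0.59. COX6A1 and NDUFA12 on chromosome 12 had -0.35 and -0.41, with neighbours at -0.47 and -0.30, and NDUFV2 on chromosome 18 had 0.22, with neighbours at 0.43. Other differences had no such company. COX5A and ATP5PD were higher in clone 13, by 0.24 and 0.26 on the log2 scale, each with neighbours at 0.03. UQCRFS1 had 102, 79.8 and 91.2 CPM in clone 13 and 119, 112 and 113 CPM in clone 3, a log2 fold change of -0.33 (adjusted p = 0.00167) with neighbours at -0.09. UQCR10, SDHB and ATP5PB had -0.24, -0.18 and -0.16, with neighbours between -0.02 and 0.06. The calls for SDHB and ATP5PB ended when single libraries were left out (edgeR adjusted p up to 0.0666 and 0.106). That for ATP5PB also ended with the GC offset (0.137). Without replicate 1 of clone 3, the lower calls were 5 in place of 9. Log2 fold change, clone 13 over clone 3, and GC content had a Spearman correlation of 0.344 across the subunits and 0.196 across 14057 genes. The part of GC content or DNA copy number in these differences was not tested.

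**Figure D4:**
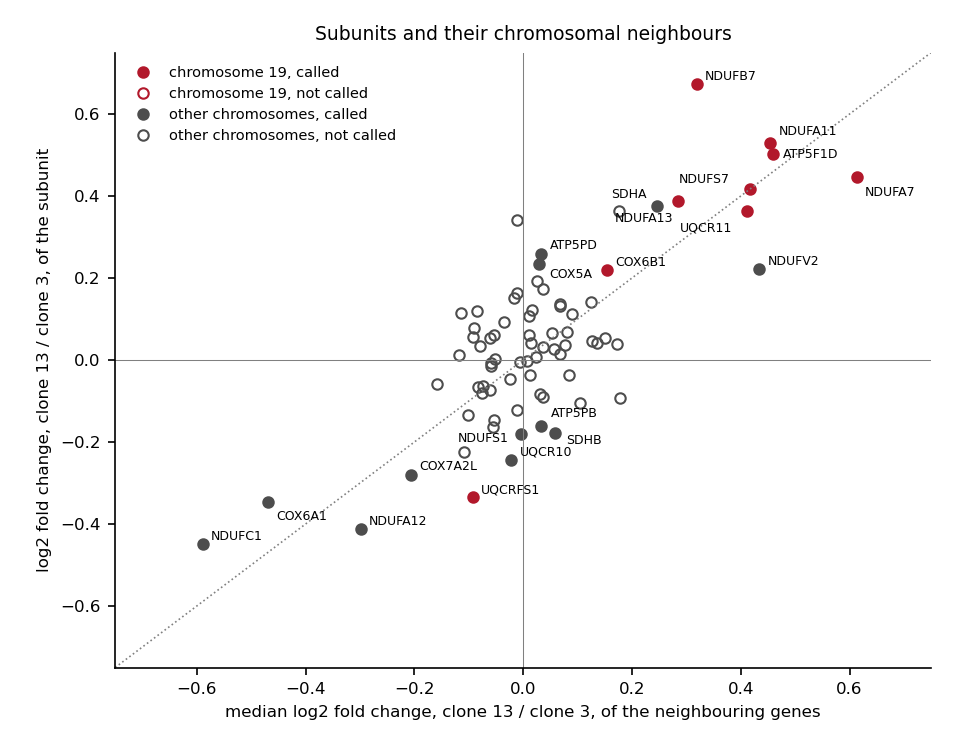
Points are tested subunits; the horizontal axis is the median log2 fold change, clone 13 over clone 3, of the 20 tested genes on either side, and the vertical axis that of the subunit itself, with the dotted line at equality. Called subunits on chromosome 19 (filled red) lie at the upper right except UQCRFS1, and NDUFC1, NDUFA12 and COX6A1 lie at the lower left with their neighbours.

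Set against wild type, subunits of the double knockouts were called in both directions, about as often as other genes. The mean of both clones was lower than the wild-type library for 23 subunits and higher for 16, or 29.5% and 20.5% of those tested, against 26.4% and 26.5% of all genes, and the median log2 fold change was -0.09. This comparison and that of MITFKO share the single wild-type library, so the values of each are not independent. ATP5MC2 and COX8A were called higher than wild type, at log2 0.19 and 0.30, and both calls were lost with the GC offset, at adjusted p = 0.849 and 0.519. Log2 fold change and GC content had a Spearman correlation of 0.486 across the subunits and 0.284 across 14057 genes. ATP5MC3, NDUFB3 and UQCRFS1 stayed farthest below wild type, with log2 fold changes of -1.04, -1.12 and -0.89. NDUFS8 remained highest above it, at 0.82 (adjusted p = 9.12e-09). Without replicate 2 of both clones, 29 subunits were lower and 21 higher. Calls among all genes grew as well, to 4221 lower and 4178 higher, from 3861 and 3870 with all libraries.

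In A375, which carried no labelled MITF edit, TFE3KO cells had slightly more mRNA of some subunits. Of 79 tested, 23 rose and 1, NDUFV1, fell, against 21.3% and 22% of all genes, and the median log2 fold change was 0.09, against 0.00 for all genes. The share that rose, 29.1%, was not far from the background, while the share that fell was 1.27%. Complex IV had 7 of 13 tested subunits higher, complex I 9 of 35, complex V 4 of 17, complex III 2 of 10 and complex II 1 of 4. The third TFE3KO library lay near wild type: averaged over all subunits, the log2 difference from the wild-type mean was 0.16, 0.13 and 0.00 in the TFE3KO libraries and -0.01, -0.00 and 0.01 in the wild-type ones. Without it, 36 subunits rose in place of 23.

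COX7B, which differed most clearly in complex IV, had 84.1, 87.1 and 82.6 CPM in TFE3KO and 66.9, 65.8 and 65.1 CPM in wild type, a log2 fold change of 0.36 (SE 0.05, adjusted p = 1.62e-07). COX7A2L, which helps complexes III and IV join into supercomplexes, had 74.3, 74.4 and 76.5 CPM in TFE3KO and 60.5, 55 and 62.1 CPM in wild type. NDUFA7 had 34.8, 35.9 and 27 CPM against 20.3, 22.9 and 22.4 CPM, the largest rise at log2 0.58. In these genes the groups did not overlap, although the third TFE3KO library was the lowest of its group for COX7B and NDUFA7. ATP5MC2 and ATP5F1D rose by 0.29 and 0.20, and UQCRB by 0.21. NDUFV1, the flavin-binding subunit of complex I, had 132, 124 and 121 CPM in TFE3KO and 138, 137 and 147 CPM in wild type, a log2 fold change of -0.16 (adjusted p = 0.00222). SDHC was the only member of complex II called, at log2 0.16, with SDHA, SDHB and SDHD between -0.03 and 0.08.

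The lines were grown in different media, and no A375 group was labelled as edited in MITF, so line, medium and MITF status cannot be told apart here.

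The difference between lines was tested directly, as the mean effect of both clones over MITFKO minus the effect of TFE3KO over wild type in A375. It was above 0 for 63 of 79 subunits, and at an adjusted p under 0.05 it was called positive for 33 and negative for 6, against 18.5% and 19.3% of all genes. Among the called subunits the largest positive differences were UQCR10 at 0.59 (SE 0.12, adjusted p = 0.000157), ATP5MG at 0.48, NDUFA9 at 0.46 and ATP5MC1 at 0.45. UQCR10 had 27.8, 32.8 and 26.2 CPM in A375 TFE3KO and 32.8, 30.9 and 31.3 CPM in A375 wild type, which overlap, whereas it rose in both SKMEL28 clones. The ones called negative were NDUFA7 at -0.53, NDUFB5 at -0.39, COX7A2L at -0.37, NDUFB4 at -0.27, NDUFS1 at -0.25 and ATP5F1A at -0.15. NDUFB5 had 36.4, 34.2 and 35.1 CPM in A375 TFE3KO and 31.4, 37.7 and 34.2 CPM in wild type. Neighbours of these 6 genes also had negative differences, with medians from -0.44 to -0.04. Without the third A375 TFE3KO library, 22 subunits had a difference called positive.

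**Figure D5:**
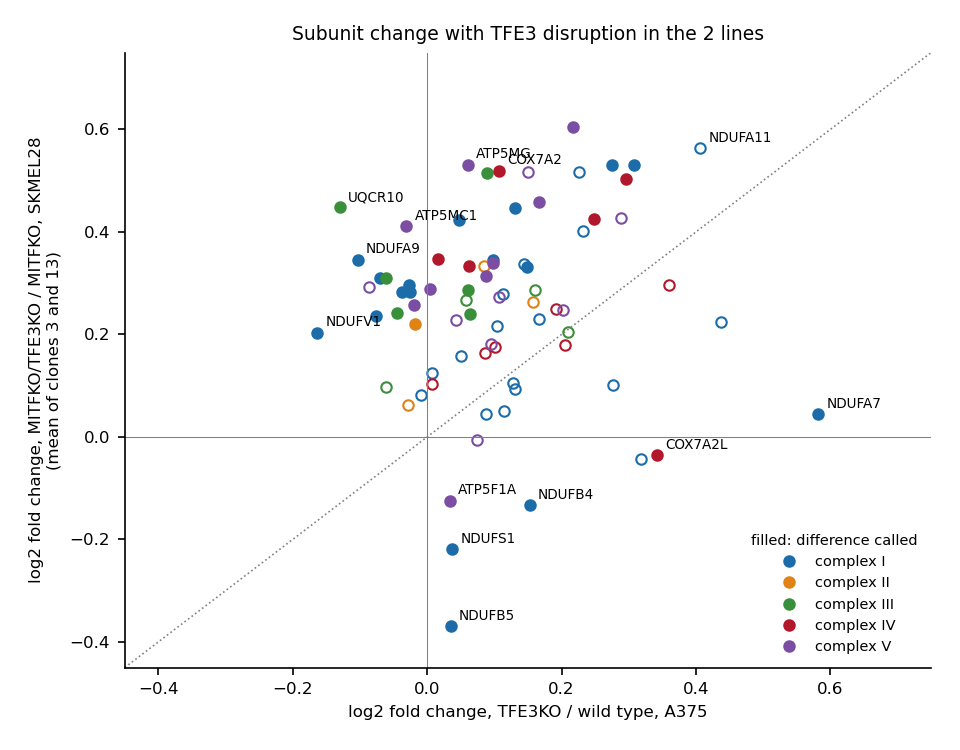
Points are subunits; the horizontal axis is its log2 fold change in A375 (TFE3KO over wild type) and the vertical axis the mean of its log2 fold changes in clones 13 and 3 over MITFKO in SKMEL28, with the dotted line at equality. Filled points differ between lines at an adjusted p under 0.05; most lie above the line, and NDUFA7, COX7A2L, NDUFB4, NDUFB5, NDUFS1 and ATP5F1A lie below it.

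Genes around the chain were read from lists that share no member with it. Of 17 genes of the citric acid cycle and pyruvate dehydrogenase, 11 fell and 3 rose in MITFKO against wild type, with IDH3B 1.93-fold lower and OGDH 1.67-fold higher. In clone 13 and in clone 3, 9 of the 17 rose and none fell against MITFKO by edgeR's test, led by PDHB (log2 0.49) in clone 13 and SUCLG1 (0.43) in clone 3. In A375 TFE3KO, 4 rose and 3 fell. Among all genes, 25.2% rose and 23.4% fell in MITFKO, and 20.5% and 20.2% in clone 13. The shares were 18.2% and 17.6% in clone 3 and 21.3% and 22% in A375 TFE3KO. Assembly factors of complex IV fell in 11 of 23 genes in MITFKO, with COX16 2.87-fold lower, and 1, COX19, was 2.19-fold higher. Those of complex III fell in 5 of 6, and 1, TTC19, was 1.33-fold higher. In clone 13, complex IV factors rose in 3 and fell in 5, a share of falls near that of all genes and a smaller share of rises. In clone 3 they rose in 8 and fell in 1. Complex III factors rose in 1 of 6 in clone 13 and 3 of 6 in clone 3, and none fell. A375 TFE3KO had 1 rise and 6 falls among the 23 factors of complex IV. There, complex III factors had 1 rise and 3 falls. Of 16 assembly factors of complex I, 3 rose and 4 fell against MITFKO in clone 13 and likewise in clone 3, near the shares of all genes given above for those clones.

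ATP5IF1, the inhibitor of ATP synthase, was 2.16-fold lower in MITFKO than in wild type (adjusted p = 2.04e-08) and rose by 0.56 in clone 13 and 0.32 in clone 3. CYCS, cytochrome c itself, had 314, 297 and 267 CPM in MITFKO and 512 CPM in wild type, 1.75-fold lower (adjusted p = 1.96e-05). It rose in clone 3 by 0.35, with 0.13 in clone 13 (adjusted p = 0.244), and fell in A375 TFE3KO, at 191, 187 and 180 CPM against 225, 229 and 228 CPM. The coactivator gene PPARGC1A was at 0.926, 0.805 and 2.19 CPM in MITFKO and 6.82 CPM in wild type, 5.21-fold lower (adjusted p = 0.00183). It was lower still in clone 13, at 0.732, 0.388 and 0.0475 CPM (adjusted p = 0.0179), and stood at 0.561, 0.887 and 0.632 CPM in clone 3 (adjusted p = 0.209). Clone 13 and clone 3 thus showed no rise of PPARGC1A, which is scarce in all edited SKMEL28 libraries. CHCHD2, a regulator of COX4I2 in the nucleus, rose by 0.43 in clone 13 and 0.46 in clone 3. It was the largest rise among 16 tested regulators of mitochondrial biogenesis, of which 3 rose and 3 fell in each clone. Those counts lie near the shares of all genes, 20.5% and 20.2% in clone 13 and 18.2% and 17.6% in clone 3. In A375 TFE3KO, 1 of the 16 rose and 8 fell, against 21.3% and 22% of all genes. The 13 genes of the mitochondrial genome had no symbol in the tables used here and were not analysed.

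Tissue-restricted forms were at or near 0. COX4I2, COX6A2, the muscle form of subunit 6A, and the testis form COX8C had no count in any of the 16 libraries, which allows up to 3 counts over all of them. COX6B2 and COX7A1 stayed at or below 0.44 CPM. COX7B2, known from testis, had 3.69, 4.55 and 4.05 CPM in A375 TFE3KO and 3.31, 3.83 and 3.76 CPM in A375 wild type, and at most 0.12 CPM in SKMEL28. Of the complex I subunits, NDUFA6 had no count in any library and NDUFA3 at most 2 counts, although both are standard parts of complex I. They are therefore only listed at 0, and ATP5F1E, tested at 0.721 to 2.57 CPM, is likewise not interpreted. ATP5MGL had at most 2 counts and the readthrough gene ATP5MF-PTCD1 none. Without ATP5F1E, these make up the 10 genes not tested in SKMEL28 and, without COX7B2, the 9 not tested in A375.

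Promoters were searched for the sites of the factors named above in 300 bases around the start of each gene, in RefSeq on GRCh38.p14, on both strands. A promoter was held for 70 of the 88 subunits. The NRF1 core GCATGCGC was in 14 of them (20%, against 3.68% of 27305 genes), the ERR half-site AAGGTCA in 11 (15.7% against 4.8%), the ETS core CCGGAAG in 21 (30% against 12.2%) and the YY1 site AAGATGGCG in 9 (12.9% against 2.14%). The E-box CACGTG, which MITF and TFE3 can bind, was in 7 (10% against 8.77%): ATP5MC1, ATP5ME, ATP5PB, NDUFA7, NDUFA11, NDUFS7 and UQCR11. The extended lysosomal form of the E-box, the CLEAR motif, was in 0 of 70, and in 0.421% of all genes. The E-box lies within the CLEAR motif, so these counts overlap.

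The 7 subunits with an E-box all rose in clone 13 and 4 of them in clone 3, against 37 and 33 of the 57 tested without one, and 4 of the 7 lie among the chromosome 19 genes described above. The 13 tested subunits with an NRF1 core had a median of -0.47 in MITFKO against wild type, and the 51 without it -0.24. The 11 with an ERR half-site had -0.45 and the 53 without it -0.24. The 21 with an ETS core had -0.42 and the 43 without it -0.24. The YY1 site and the E-box went the other way, with -0.14 for the 8 with and -0.31 for the 56 without a YY1 site, and -0.15 with and -0.29 without an E-box. Against MITFKO, the medians with and without an NRF1 core were 0.25 and 0.32 in clone 13 but 0.28 and 0.22 in clone 3. Those with and without an ERR half-site were 0.23 and 0.32 in clone 13 and 0.21 and 0.23 in clone 3. The motif says only that the letters are present, and no binding was measured.

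A promoter is shown for 1 gene with each of 3 motifs, with the motif in capitals (reverse complement where the match is on the other strand). ATP5ME rose in both clones and holds an E-box 162 bases before its start (chr4:674227-674526, minus strand). ATP5F1C, 1.85-fold lower in MITFKO than in wild type, holds overlapping NRF1 cores in both orientations just before its start (chr10:7787927-7788226, plus strand). COX8A rose in both clones and in A375, where the call was lost without wild-type replicate 2 (edgeR adjusted p = 0.0782). It holds an ERR half-site 12 bases after its start (chr11:63974370-63974669, plus strand).
ATP5ME: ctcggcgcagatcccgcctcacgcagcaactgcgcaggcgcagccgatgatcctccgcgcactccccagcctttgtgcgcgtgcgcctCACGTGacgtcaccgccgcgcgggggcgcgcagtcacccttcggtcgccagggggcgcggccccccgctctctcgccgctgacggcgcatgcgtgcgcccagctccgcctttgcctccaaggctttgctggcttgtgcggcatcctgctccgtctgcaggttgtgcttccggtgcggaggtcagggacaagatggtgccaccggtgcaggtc
ATP5F1C: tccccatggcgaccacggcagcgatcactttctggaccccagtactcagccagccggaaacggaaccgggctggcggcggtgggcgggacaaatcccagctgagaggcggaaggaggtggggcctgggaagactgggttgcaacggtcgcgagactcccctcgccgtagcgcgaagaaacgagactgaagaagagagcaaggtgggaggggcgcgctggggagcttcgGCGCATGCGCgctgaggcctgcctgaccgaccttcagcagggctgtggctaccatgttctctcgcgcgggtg
COX8A: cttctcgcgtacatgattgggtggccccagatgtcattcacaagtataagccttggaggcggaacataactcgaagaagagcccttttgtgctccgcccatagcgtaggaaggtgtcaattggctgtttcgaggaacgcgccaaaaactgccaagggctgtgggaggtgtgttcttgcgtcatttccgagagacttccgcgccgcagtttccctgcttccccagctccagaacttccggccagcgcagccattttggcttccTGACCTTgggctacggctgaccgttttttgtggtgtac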

How the data were processed

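Gene-level read counts, deposited by the authors as whole numbers for each library, were used without change. The submitters' processing notes name STAR, featureCounts, DESeq2 and hg19; strand, annotation release and the handling of reads with several matches are not stated by the labels or files, so genes with near-identical copies or overlaps are uncertain. CPM values were computed here with trimmed-mean (TMM) factors within each line, so levels are not compared between lines.

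Counts were filtered with filterByExpr and tested with edgeR 4.0.16 in R 4.3.3 (robust quasi-likelihood fit, Benjamini-Hochberg adjustment over all genes). SKMEL28 was fitted as 10 libraries, A375 as 6, and the difference between lines as 15, without the lone wild-type SKMEL28 library. The fitting step was first tested on simulated data. No sample was dropped or imputed. The values of 1 subunit are not reported here or drawn in the figures, although counts and medians include it.

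The members and gene lists were chosen with earlier results of these data known. Members were named as the largest called rise and fall of each complex (mean CPM of at least 5, libraries not overlapping), with complex II, isoform families and core subunits; other members named in the text were chosen after their values were seen. Chromosomes and gene order came from the RefSeq table of GRCh38.p14 (names only; the files use hg19), and GC content from GENCODE 29 transcripts.

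Replicate numbers were checked for pairing: same-numbered libraries of clones 13 and 3 deviated together (correlations of 0.162, 0.398 and 0.177). Same-numbered libraries of other groups had correlations from -0.0881 to 0.0663. Replicates 1 and 3 of the clones correlated about as well across numbers, at 0.161 and 0.142. Only replicate 2 was thus set apart in both clones, and pairing by number was not shown for replicates 1 and 3. Alternatives were RLE scaling, no filter, DESeq2 1.42.0, a GC offset, a replicate block, fits of only the groups compared, and leaving out libraries.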

Additional observations from a re-analysis of the deposited data

Results flagged for a closer look

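Of the subunits whose change with TFE3 disruption was called different between lines (33 positive, 6 negative), 17 belong to the members named by rule and are given here. The difference was tested by an interaction term (edgeR's quasi-likelihood test, adjusted p under 0.05), each value being the log2 effect in SKMEL28 (mean of clones 13 and 3 over MITFKO) minus that in A375 (TFE3KO over wild type). In complex I the differences were 0.46 for NDUFA9, 0.38 for NDUFV1, -0.25 for NDUFS1 and -0.53 for NDUFA7. In complex II SDHB had 0.25. In complex III UQCR10 had 0.59 and CYC1 0.38. In complex IV COX7A2 had 0.42, COX4I1 0.34, COX6B1 0.28, COX8A 0.22, NDUFA4 0.19 and COX7A2L -0.37. In complex V ATP5MG had 0.48, ATP5MC1 0.45, ATP5F1B 0.29 and ATP5F1A -0.15. NDUFA7 and COX7A2L rose in A375. NDUFA7 also rose in clone 13 (log2 0.27), with -0.18 in clone 3, where it was not called. COX7A2L had -0.18 in clone 13 and 0.10 in clone 3. NDUFV1 fell in A375 and rose in clone 13. The calls for COX8A, NDUFA4 and ATP5F1A were lost without any 1 of several libraries, with adjusted p up to 0.218, 0.133 and 0.0956, each time highest without the third A375 TFE3KO library. The call for ATP5F1A also ended with RLE scaling (adjusted p = 0.0959), without the filter on low counts (0.0732), with the GC offset (0.101) and with the replicate block and GC offset together (0.117), and that for NDUFA4 without the filter (0.0976). The part of medium, line or single libraries in these differences was not tested beyond that.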

How the results depend on the processing

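RLE scaling, DESeq2, no filter on low counts and the GC offset left the number of subunits called within 1.5 times, except that the falls in clone 13 against MITFKO were 2 with DESeq2 and with the GC offset in place of 4, and the falls in A375 were 2 with the GC offset in place of 1. The median of the subunits in MITFKO against wild type moved to -0.41 without the filter (83 subunits) and -0.35 with the GC offset, and that of clone 13 against MITFKO to 0.32 with the GC offset. ATP5F1D in MITFKO against wild type reversed to -0.0827 with the GC offset. The cause was not tested.

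With libraries left out in turn, the median in MITFKO against wild type ran from -0.34 to -0.30. Falls ran from 1 to 2 in clone 3 against MITFKO (3 with all libraries), from 2 to 5 in clone 13 against MITFKO, from 5 to 9 in clone 13 against clone 3 and from 1 to 2 in A375. Rises in A375 ran from 18 to 36, the highest without the third TFE3KO library, and the median difference between lines ran from 0.13, without that library, to 0.22. The lone SKMEL28 wild type could not be left out.

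With a replicate block, 58 subunits rose and 4 fell in clone 13, 47 and 4 in clone 3, and 21 and 1 in A375, and clone 13 against clone 3 had 14 higher and 9 lower. The fit of both clones alone with a replicate block, added after seeing the data, gave 15 and 9. The difference between lines had 33 positive and 7 negative. In the groups other than the clones the numbers pair nothing beyond a shared number.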

Other observations

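Enzymes that make ubiquinone, the electron carrier between complexes I, II and III, were called in both directions in clone 13, MITFKO and A375 TFE3KO. Of 13 genes tested, 1 rose and 4 fell in MITFKO against wild type, where COQ3, a methyltransferase of the pathway, was 3.23-fold lower. In clone 13 against MITFKO 3 rose and 2 fell, with the kinase-like COQ8A 1.81-fold higher and the prenyltransferase COQ2 1.37-fold lower. In clone 3, 4 rose and none fell, with COQ6 1.44-fold higher. In A375 TFE3KO 2 rose and 4 fell against wild type. Among all genes, 25.2% rose and 23.4% fell in MITFKO, 20.5% and 20.2% in clone 13, and 18.2% and 17.6% in clone 3. In A375 TFE3KO the shares were 21.3% and 22%. The list was not tested as a set, and with 13 genes its counts are not read as particular to the pathway. UQCC3, an assembly factor of complex III, was 1.85-fold higher in clone 13 and 1.74-fold higher in clone 3 than in MITFKO. POLRMT, the mitochondrial RNA polymerase, was 1.79-fold higher in MITFKO than in wild type. It was the largest called rise among 16 tested regulators of mitochondrial biogenesis, whose median log2 fold change was -0.11. The fibroblast marker LUM averaged 72.1 CPM in clone 13, 92.6 CPM in clone 3, 48.3 CPM in MITFKO and 39.6 CPM in wild type, and its part in the subunit changes was not tested.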
